A study of Sus scrofa with 24 samples.

Results

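Testes of letrozole-treated boars were compared between 3 and 2 weeks of age, with 4 boars at each age. These 8 boars were chosen from the 24 of the series by their labels, namely letrozole, an age of 2 or 3 weeks, and a litter (14, 15, 39 or 41) taken from the second of the 3 numbers in each title. Each litter gave 1 letrozole boar at each of the ages, so the comparison was made within 4 litters. All boars had the commercial PIC background. From 1 week of age they received a weekly oral dose of either letrozole at 0.1 mg/kg or canola oil, ending 1 week before the testis was taken. The 3-week boars were therefore both older and longer on letrozole than the 2-week boars, and within the letrozole groups these cannot be told apart. The vehicle boars of the same litters and ages (4 and 4) gave the change with age without letrozole, although in litters 14 and 15 their lane changed too. RNA was taken from whole testis and polyadenylated RNA was sequenced.

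Letrozole blocks aromatase, the enzyme that converts androgens to oestrogens. Leydig cells of the boar testis, which carry the steroid pathway from cholesterol to androgens, also make large amounts of oestrogen, part of which leaves the testis as sulfate conjugates. In the first weeks of life Sertoli cells still divide, and lowering oestrogen with letrozole in this period is known to give boars more Sertoli cells later on. In whole testis, fewer cells of a type and less RNA per cell cannot be told apart.

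The libraries held 22841047 to 29769116 exon reads. Exon totals were lower at 3 weeks in 4 of 4 litters, by a mean log2 ratio of -0.20 ± 0.02 (SD, n = 4; exact two-sided sign-flip p = 0.125, the smallest that 4 litters allow, adjusted p = 0.375 over 3 library measures). The intron share, the percentage of reads within genes that fell outside exons, was 9.51%, 5.77%, 7.45% and 6.57% at 2 weeks in litters 14, 15, 39 and 41, and 7.82%, 17.7%, 8.21% and 7.41% at 3 weeks. The 3-week boar of litter 15 stood apart from the other 7 boars in this share, and the medians of several gene groups below lay nearer to 0 without it. The mitochondrial share of exon reads lay between 7.00% and 11.7% at 2 weeks and between 7.48% and 11.0% at 3 weeks. For 1 vehicle library (litter 15, 3 weeks) the column header reads letrozole although the label reads vehicle, so differences from vehicle are given without it where a gene turns on them. Litters 14 and 15 were sequenced on lane 7 at 2 weeks and on lane 2 at 3 weeks, whereas litter 39 stayed on lane 8 and litter 41 on lane 5. Testis markers were present in all 8 boars: INSL3 of Leydig cells had at least 106043 reads, AMH of Sertoli cells at least 6019 and the germ cell gene DDX4 at least 184. The fat cell gene ADIPOQ had at most 3 reads and the duct genes PAX2 and CDH16 at most 16 and 13. Other markers of cells outside the tubules were present: the muscle genes CKM and MYH3 had 614 to 2956 and 26 to 249 reads. The haemoglobin gene HBB had 5306 to 79997 reads and the epithelial gene EPCAM 13 to 63.

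No gene passed the test between the ages. Of 15597 genes tested in edgeR's quasi-likelihood fit with the litter as a block, 0 had a Benjamini-Hochberg adjusted p under 0.05 (0%), while 963 (6.17%) had an unadjusted p under 0.05, 498 of them higher at 3 weeks (3.19%) and 465 lower (2.98%). DESeq2 called 21 of 13480 genes (0.156%), 7 higher (0.0519%) and 14 lower (0.104%). A log2 fold change of 1 or more in size was fitted in 417 genes (2.67%), and 48.8% of all genes were below 0. In the same fit 0 vehicle genes passed between these ages, with 1379 (8.84%) at an unadjusted p under 0.05, while letrozole testes had 2734 passing genes (17.5%) at 5 against 2 weeks and 4 (0.0256%) at 5 against 3 weeks. In 110 genes (0.705%) all 3-week boars lay above all 2-week boars, and in 83 genes (0.532%) all lay below. The direction was the same in 4 of 4 litters in 951 higher genes (6.1%) and 1060 lower genes (6.8%). The litters differed from each other: across the 12417 genes whose mean log2 CPM (exon reads scaled to library size) was 1 or more, the log2 differences of litters 14 and 15 had a Pearson r of -0.31, those of litters 15 and 41 one of 0.33, and the other 4 pairs of litters lay between these values. The SD of these differences over genes was 0.79 in litter 15, against 0.52, 0.44 and 0.36 in litters 14, 39 and 41.

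Values below are CPM, scaled by edgeR's normalization factors, in the boars of litters 14, 15, 39 and 41 in that order. Fold changes are fitted log2 values. Their standard errors come from the fit of all 23 libraries and do not measure the spread over the 4 litters. Unless another tool is named, the adjusted p is edgeR's over all genes. Genes are called higher or lower as a description of the boars, since 0 passed.

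The gene with the smallest p among those higher at 3 weeks was WIPF3 (ENSSSCG00000016685, chromosome 18, 42991498 to 43071294). It encodes a protein that binds the actin regulators of the Wiskott-Aldrich family. WIPF3 stood at 10.7, 11.9, 9.56 and 3.50 CPM at 2 weeks and at 19.1, 56.7, 29.8 and 6.87 CPM at 3 weeks. Each 3-week boar lay above its littermate, while litter 41 was low at both ages, so the groups overlapped. The log2 fold change was 1.48 ± 0.24 (adjusted p = 0.0633, DESeq2 adjusted p = 2.37e-05), and it was 1.18 without the 3-week boar of litter 15. In vehicle testes the fitted value was 0.78 ± 0.24, and the difference between the treatments was 0.70 ± 0.34 (unadjusted p = 0.055, adjusted p of 1). Without the 3-week vehicle boar of litter 15 the WIPF3 difference was 0.53 (unadjusted p = 0.145 in edgeR).

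FOSL2, a subunit of the AP-1 transcription factor, had non-overlapping groups. It stood at 31.6, 28.3, 19.2 and 23.8 CPM at 2 weeks and at 44.3, 69.3, 44.6 and 42.2 CPM at 3 weeks. The fitted value was 0.97 ± 0.24 in letrozole and 1.11 ± 0.24 in vehicle testes (adjusted p = 0.629 for letrozole), so the difference of -0.14 ± 0.34 was small against its error. VEGFD, a growth factor of lymphatic vessels, went from 4.72, 4.55, 3.77 and 6.07 CPM to 11.7, 5.94, 6.61 and 9.19 CPM. Its groups overlapped only through the 3-week boar of litter 15, and its log2 value was 0.78 ± 0.21 (adjusted p = 0.678). PI16, a peptidase inhibitor found in fibroblasts, was higher at 3 weeks in 4 of 4 litters, with 2.86 to 10.4 CPM at 2 weeks and 5.06 to 17.3 CPM at 3 weeks. Its values of 1.00 ± 0.26 in letrozole and 0.98 ± 0.26 in vehicle testes lay within their errors of each other.

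**Figure D1:**
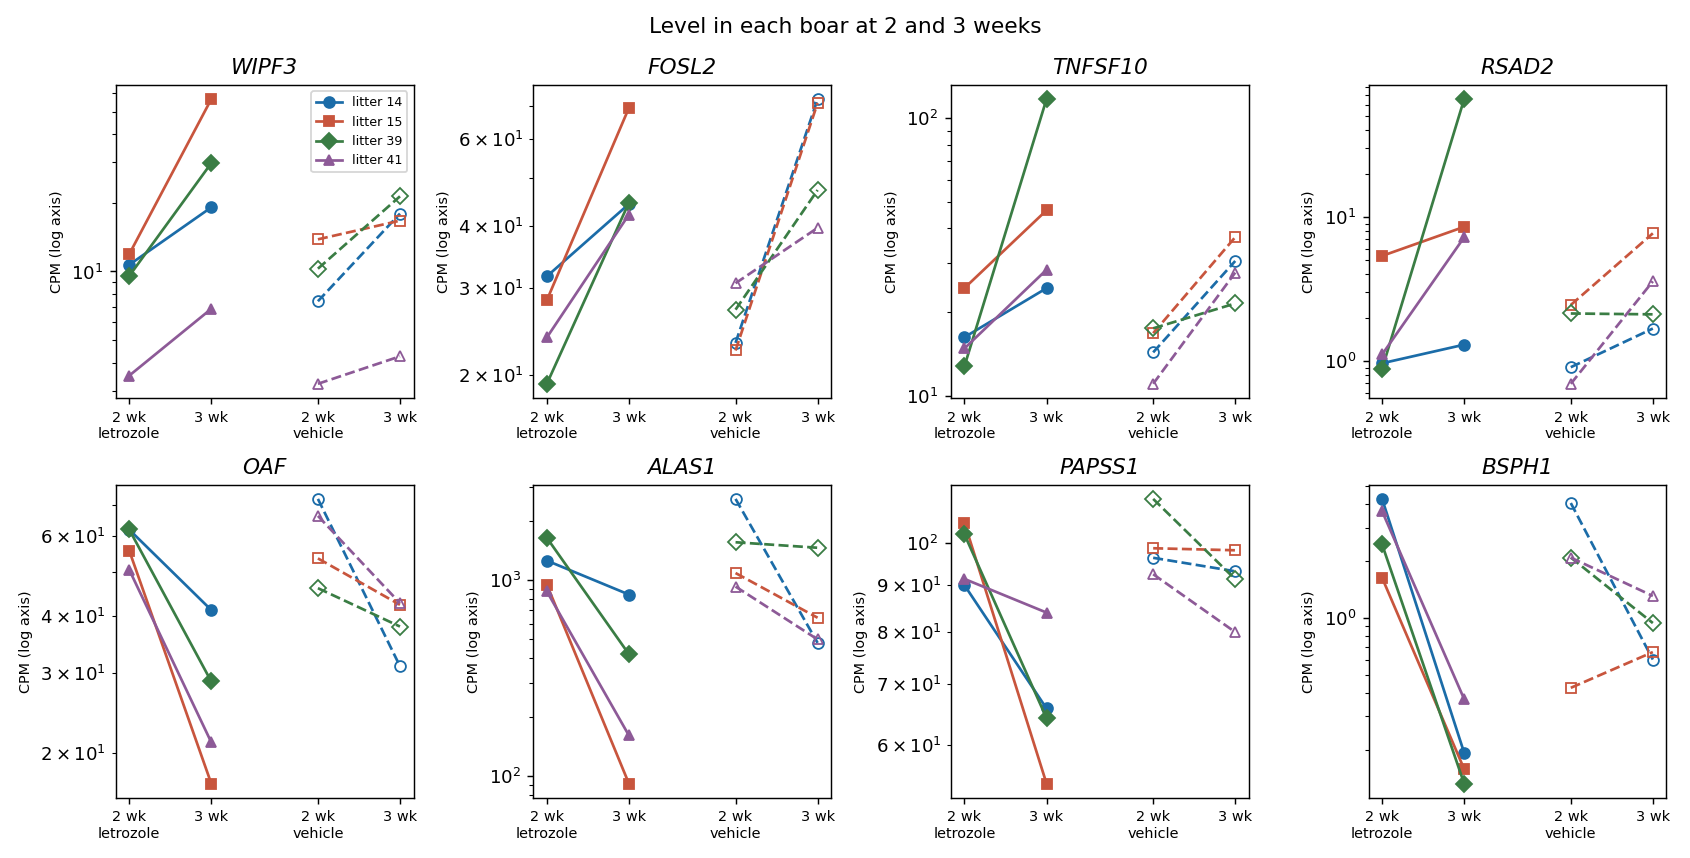
CPM on a log axis of 8 genes in each boar at 2 and 3 weeks, with lines joining littermates of the same treatment (filled marks and solid lines, letrozole; open marks and dashed lines, vehicle). WIPF3 was higher and OAF lower in every letrozole litter, the 65.97 CPM of RSAD2 belonged to 1 boar, and BSPH1 stood at 0.371 CPM or less in each letrozole boar at 3 weeks.

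The remaining 6 of the 10 higher genes with the smallest p are known to be induced by interferon, and 3 of them (RSAD2, PARP14 and DTX3L) are on the interferon list. RSAD2, an antiviral radical SAM enzyme, stood at 0.966, 5.38, 0.883 and 1.11 CPM at 2 weeks and at 1.30, 8.56, 65.97 and 7.24 CPM at 3 weeks. The 3-week boar of litter 39 was far above the rest, and the 2-week boar of litter 15 was itself above the 3-week boar of litter 14. The log2 fold change of 3.23 ± 0.78 (adjusted p = 0.495, DESeq2 adjusted p = 0.0148) was 1.55 without that litter 39 boar. TNFSF10, the death ligand TRAIL, went from 16.2, 24.4, 12.8 and 14.8 CPM to 24.4, 46.5, 117 and 28.4 CPM. Its value of 1.61 ± 0.36 (adjusted p = 0.495) was 0.87 without the same boar, and vehicle testes gave 0.99 ± 0.35. PARP14, an ADP-ribosyltransferase, had 4.77, 15.9, 64.2 and 9.00 CPM at 3 weeks after 4.06 to 9.26 CPM at 2 weeks, a value of 1.85 ± 0.50 that was 0.72 without that boar. DTX3L, a ubiquitin ligase (1.45 ± 0.39), and ZNFX1, a sensor of double-stranded RNA (1.19 ± 0.32), followed at an adjusted p of 0.678 each, with 0.73 and 0.51 without that boar. C19orf66, an inhibitor of viral frameshifting in human cells, differed from these in having non-overlapping groups, with 5.42, 7.77, 6.10 and 6.54 CPM at 2 weeks and 8.52, 8.65, 14.2 and 9.47 CPM at 3 weeks (0.64 ± 0.17, adjusted p = 0.678, against -0.07 ± 0.17 in vehicle). The treatment difference of 0.71 ± 0.24 had an unadjusted p of 0.0086, or 0.014 in edgeR without the 3-week vehicle boar of litter 15.

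The list of interferon-stimulated genes as a whole was the one farthest from the median of all genes. Of 41 tested members, 41 had a log2 fold change above 0 (51.2% of all genes did), and the median was 1.12 against 0.01 for all genes. In the higher direction 30 had an unadjusted p under 0.05 (3.19% of all genes did). With edgeR 0 passed the adjusted threshold, and DESeq2 called 4 members, RSAD2, OAS2, MX2 and PARP14. The median of the members was 2.79 in litter 39 and 0.66 in litter 41, but 0.03 in each of litters 14 and 15, where 25 and 24 of the 41 were above 0. The summed level of the list was 810, 1350.2, 1048 and 798 CPM at 2 weeks and 836, 1413, 6335 and 1176 CPM at 3 weeks, so the 3-week boar of litter 39 stood far above the other 7. Without the 3-week boar of litter 39 the median was 0.33 and 9 members had an unadjusted p under 0.05. In 12 members the 3-week boar was the higher in 4 of 4 litters, and in 0 did the groups separate. Vehicle testes had a median of 0.36 for these genes, with 0.97 in litter 15, 0.59 in litter 41, 0.04 in litter 14 and -0.20 in litter 39. Immune cell lists were also above 0 in litter 39, but not there alone. The neutrophil and inflammation list had a median of 0.66 in litter 39 (12 of 15 members above 0), macrophages 0.20 (18 of 23) and lymphocytes 0.16 (15 of 23). In litters 14, 15 and 41 the neutrophil medians were 0.58, -0.91 and -0.10. The macrophage medians there were 0.48, -0.80 and 0.39, and those of lymphocytes -0.08, -0.32 and 0.11. The macrophage sum of the litter 39 boars was 944 CPM at 2 weeks and 1171 CPM at 3 weeks, within the 665 to 1262 CPM of the 2-week boars. The part of other cell types in this boar's values was not tested beyond this.

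**Figure D2:**
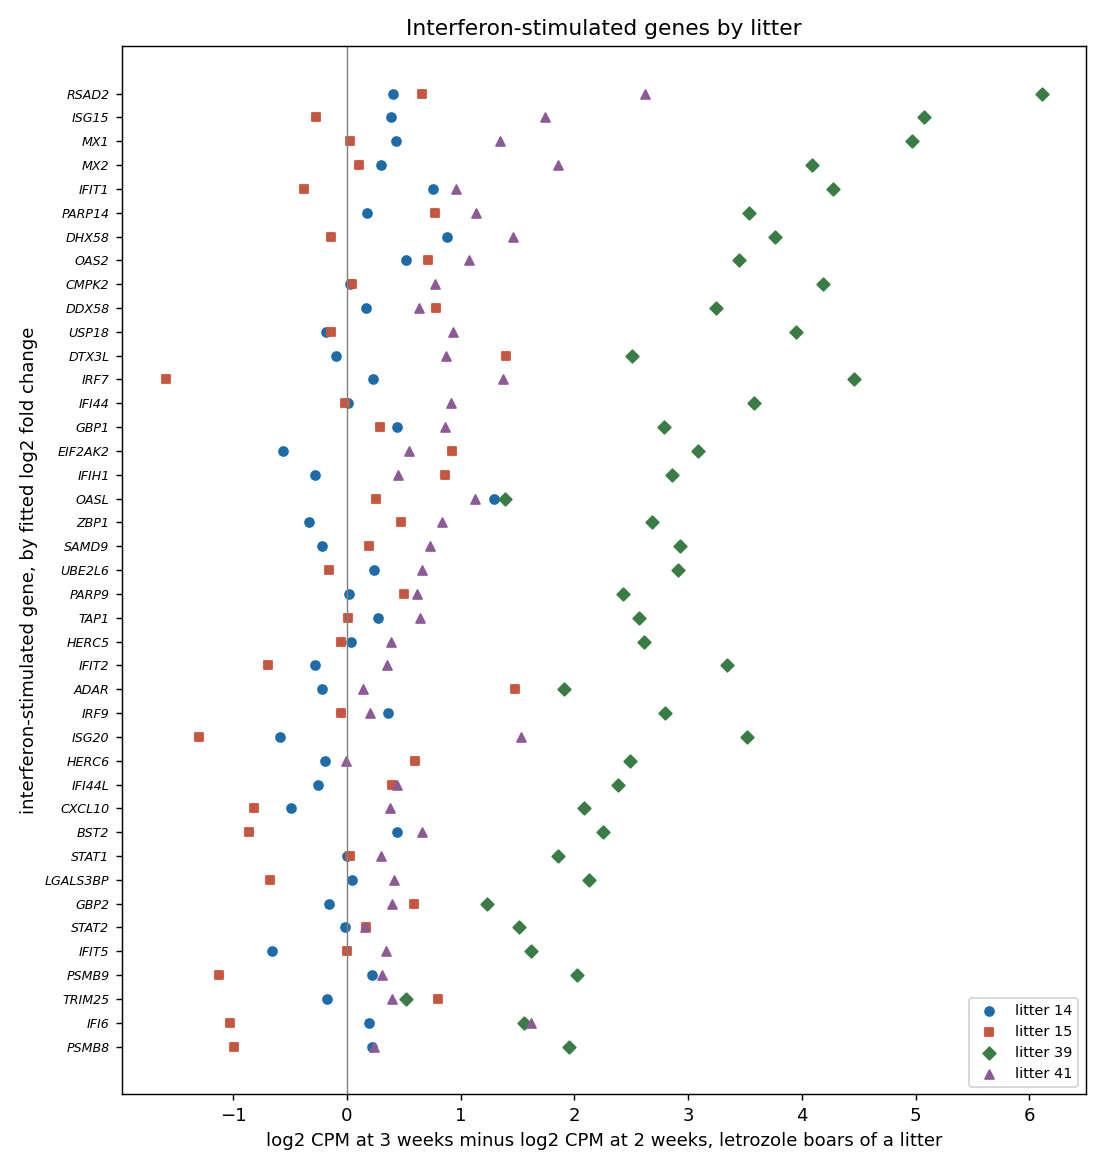
Log2 CPM at 3 weeks minus log2 CPM at 2 weeks for the 41 tested interferon-stimulated genes (1 row each, ordered by the fitted log2 fold change) in the letrozole boars of each litter (mark and colour). Litter 39 lay to the right in 41 of 41 genes, with a median of 2.79, and litters 14 and 15 lay on both sides of 0, each with a median of 0.03.

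Among the 10 lower genes with the smallest p, 6 had non-overlapping groups, against 0.532% of all genes in that direction. The genes were picked for a small p between these same groups, so this count is a description only. OAF (ENSSSCG00000036307, chromosome 9, 47345446 to 47362989) stood at 61.8, 55.6, 61.9 and 50.5 CPM at 2 weeks and at 41.2, 17.2, 28.7 and 21.2 CPM at 3 weeks. All 3-week boars lay below all 2-week boars, and litter 14 had the smallest step. The log2 value was -1.10 ± 0.23 (adjusted p = 0.495, DESeq2 adjusted p = 0.0106), against -0.62 ± 0.23 in vehicle testes. Without the 3-week boar of litter 14 it was -1.41 and passed the test, with WIPF3 (1.65), each at an adjusted p of 0.0274.

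ALAS1 carries out the first step of haem synthesis, and haem is the cofactor of the cytochrome P450 enzymes of steroid synthesis. Its level was 1258, 949, 1645 and 876 CPM at 2 weeks and 844, 91.4, 419 and 161 CPM at 3 weeks. The groups did not overlap, although the 844 CPM of litter 14 came close to the lowest 2-week boar. The log2 fold change of -1.94 ± 0.45 (adjusted p = 0.495, DESeq2 adjusted p = 0.0106) was the most negative of the 10 genes, and vehicle testes had -0.95 ± 0.44. The erythroid form of the enzyme, ALAS2, stood at 2.29 to 65.3 CPM at 2 weeks and 8.37 to 90.7 CPM at 3 weeks, with 0.76 ± 0.63 (adjusted p = 0.821).

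PAPSS1 makes the sulfate donor that sulfotransferases use. It stood at 89.9, 105, 102 and 91.4 CPM at 2 weeks and at 65.9, 54.5, 64.3 and 83.9 CPM at 3 weeks. The groups did not overlap, and the value was -0.53 ± 0.13 (adjusted p = 0.495, DESeq2 adjusted p = 0.037) against -0.14 ± 0.13 in vehicle. Its paralog PAPSS2 had 594 to 642 CPM at 2 weeks and 635 to 928 CPM at 3 weeks (0.24 ± 0.19, adjusted p = 0.815).

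TOB1, an antiproliferative protein, had 281, 174, 173 and 198 CPM at 2 weeks and 153, 58.1, 138 and 136 CPM at 3 weeks (-0.82 ± 0.20, adjusted p = 0.495; vehicle -0.15 ± 0.19). All 3-week boars were below all 2-week boars. The same held for ARF6, a small GTPase of membrane traffic, with 188 to 226 CPM at 2 weeks and 72.5 to 139 CPM at 3 weeks (-0.83 ± 0.20), and for PTX3, a secreted pentraxin of innate immunity, with 15.4 to 20.4 CPM and 6.73 to 12.8 CPM (-0.80 ± 0.19). Only 1.12% of the exon reads of ARF6 and 4.91% of those of PTX3 were unique to the gene, so both values are uncertain.

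The last 4 of the lower genes had overlapping groups, and each was lower at 3 weeks in 4 of 4 litters. DYNC2LI1, a light intermediate chain of the dynein of cilia, had 43.0, 31.5, 47.0 and 47.2 CPM at 2 weeks and 34.3, 12.9, 27.6 and 29.8 CPM at 3 weeks (-0.75 ± 0.16, adjusted p = 0.495). PLA2G7, which hydrolyses platelet-activating factor, had 29.5, 61.3, 56.5 and 76.0 CPM and then 24.4, 16.7, 16.6 and 42.7 CPM (-1.25 ± 0.28). For these 2 genes vehicle testes gave 0.14 ± 0.16 and -0.23 ± 0.27. IFRD1, a transcriptional coregulator, was at -0.57 ± 0.13 and -0.40 ± 0.13 in letrozole and vehicle testes, and MREG, which acts in organelle transport, at -1.03 ± 0.25 and -0.58 ± 0.24. In 18 of the 20 genes named by smallest p the fitted vehicle change had the same sign, and in 19 it was nearer to 0. Since these genes were picked for a small p in letrozole testes, the smaller vehicle values are a description only.

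**Figure D3:**
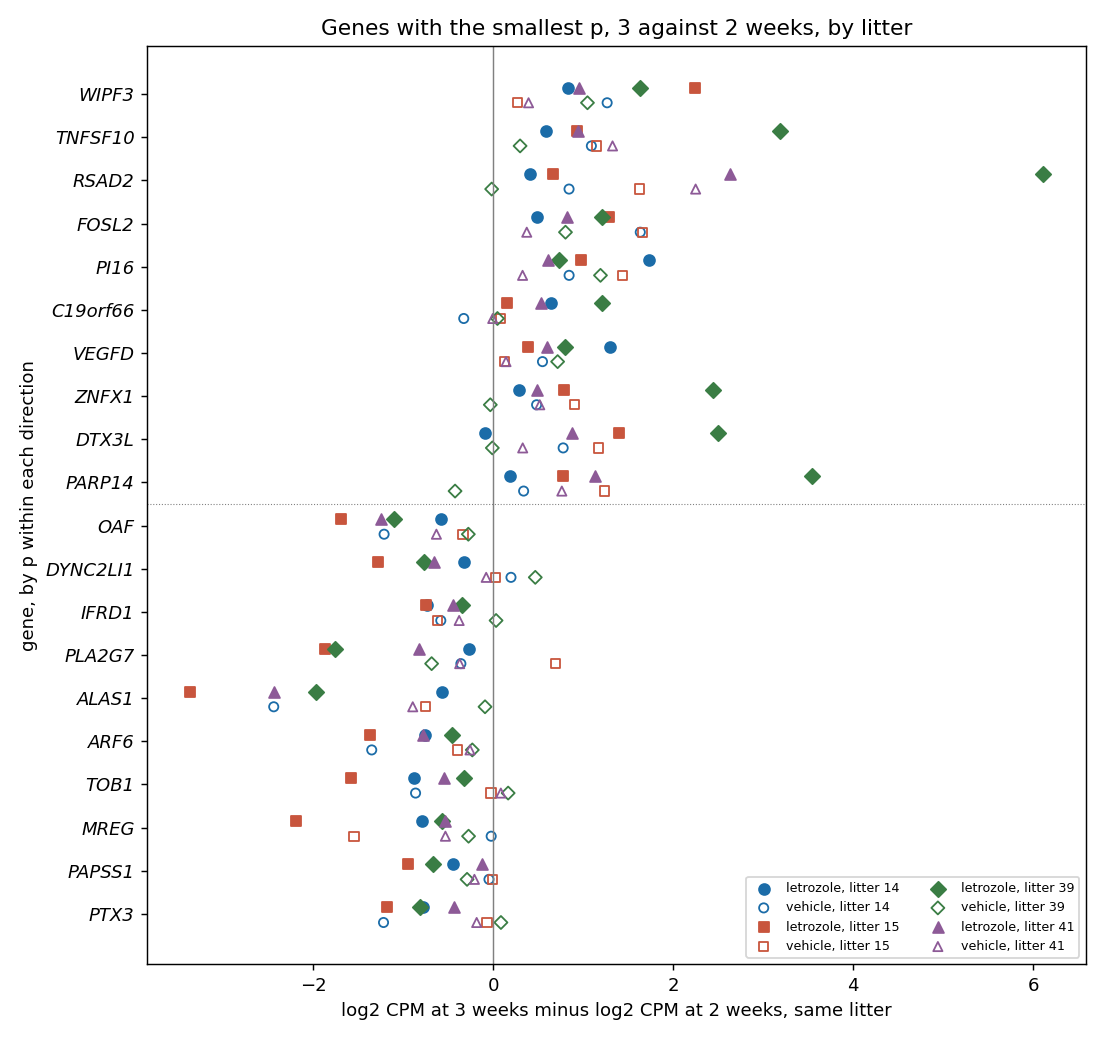
Log2 CPM at 3 weeks minus log2 CPM at 2 weeks within each litter, for the 10 higher and 10 lower genes with the smallest p (filled marks, letrozole; open marks, vehicle; mark shape and colour, litter). The 4 letrozole marks lay on 1 side of 0 in 19 of 20 genes, with DTX3L the exception at -0.09 in litter 14, and the RSAD2 mark of litter 39 lay at 6.11. The genes were picked for a small p between these groups, so the 19 of 20 is a description only.

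BSPH1 had the smallest p of all genes but too low a level for the naming rule, and is given here because its values stood out. It is related to the seminal plasma proteins that bind sperm membranes (ENSSSCG00000003123, chromosome 6, 53567000 to 53572267). BSPH1 had 4.27, 1.63, 2.45 and 3.68 CPM at 2 weeks, from 47 to 115 reads, and 0.193, 0.158, 0.132 and 0.371 CPM at 3 weeks, from 3 to 8 reads. The groups were far apart in each litter. The log2 fold change was -3.75 ± 0.60 (adjusted p = 0.0633, DESeq2 adjusted p = 5.92e-06). BSPH1 passed in 5 of 34 alternative settings. Besides DESeq2, these included edgeR with no filter on low counts (adjusted p = 0.0465) and in the 16 boars of 2 and 3 weeks (0.0293). It also passed in edgeR with unique exon reads (0.0492) and without the 2-week vehicle boar of litter 15 (0.0428). In the remaining settings it did not pass. Vehicle boars stood at 0.426 to 4.06 CPM at 2 weeks and 0.601 to 1.31 CPM at 3 weeks (-1.07 ± 0.52), and each 3-week vehicle boar lay above each 3-week letrozole boar. The difference between the treatments was -2.68 ± 0.79 (unadjusted p = 0.00304, adjusted p of 1), and -2.51 without the 3-week vehicle boar of litter 15.

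The difference between the changes under letrozole and under vehicle was tested for all 15597 genes. With edgeR 0 passed (0%), 220 had an unadjusted p under 0.05 (1.41%), and DESeq2 called 1 gene of 15597 (0.00641%), the unnamed ENSSSCG00000040146. Across the same 12417 genes the fitted changes of the 2 treatments had a Pearson r of 0.63. The treatments shared no boars but shared litters and, by litter and age, lanes.

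SULT2A1 was among the 5 named genes with the smallest p for this difference. It encodes a hydroxysteroid sulfotransferase (ENSSSCG00000033207, chromosome 6, 53522129 to 53536676). In letrozole testes SULT2A1 stood at 166, 95.6, 294 and 451 CPM at 2 weeks and at 117, 19.3, 147 and 163 CPM at 3 weeks. It was lower at 3 weeks in 4 of 4 litters (-1.26 ± 0.38, adjusted p = 0.680), with overlapping groups. In vehicle testes it had 34.4 to 369.7 CPM at 2 weeks and 169 to 403 CPM at 3 weeks, each 3-week vehicle boar being above each 3-week letrozole boar. The difference was -2.04 ± 0.54 (unadjusted p = 0.00132, adjusted p of 1). In vehicle litter 15 the step was 2.78 on the log2 scale, and without the 3-week vehicle boar of that litter the vehicle value was 0.19 and the difference -1.51 (unadjusted p = 0.0015).

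DYNC2LI1 had a difference of -0.89 ± 0.23 (unadjusted p = 8.68e-04). OLFML2B, a secreted olfactomedin-domain protein, had the smallest p of the named genes, with 1.21 ± 0.27 (unadjusted p = 2.94e-04), and its letrozole value was near 0. It stood at 90.1, 86.9, 68.1 and 40.5 CPM at 2 weeks and 65.6, 118, 91.6 and 45.8 CPM at 3 weeks in letrozole testes (0.13 ± 0.19), whereas vehicle testes gave -1.08 ± 0.19. The kinase gene DCLK3 had 0.520 to 1.67 CPM at 2 weeks and 0.0882 to 0.696 CPM at 3 weeks, and a difference of -2.36 ± 0.63 (unadjusted p = 0.00145). APOC3 had 0 reads in each 3-week letrozole boar and at most 16 reads at 2 weeks, so no fold is given. Without the 3-week vehicle boar of litter 15, the differences were -0.94 for DYNC2LI1, 1.09 for OLFML2B and -1.83 for DCLK3, and 194 genes in all had an unadjusted p under 0.05. The adjusted p of all 5 genes was 1.

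Genes of the steroid pathway were described as a list. Shares of all genes at an unadjusted p under 0.05 are given for comparison with this list and those below. In the fit of all 23 libraries they were 3.19% higher and 2.98% lower. These shares do not hold for list counts from fits that leave boars out. The total in both directions was 963 genes with all libraries, but rose to 2872 when the litter 14 boar of the letrozole 3-week group was dropped. List counts from that fit are therefore to be read against its larger total. Of 25 tested members 6 were above 0, the median was -0.30, 0 passed, and 0 and 5 had an unadjusted p under 0.05 in the higher and lower direction. The litters did not share this median: it was 0.12, -0.96, -0.07 and -0.38 in litters 14, 15, 39 and 41. Without the 3-week boar of litter 15, whose intron share was 17.7%, the median was -0.10, with 1 member higher and 3 lower at that p. Without the 3-week boar of litter 14 it was -0.58, with 1 higher and 14 lower, so the size of the list's value turned on these 2 boars. The part of the intron share in it was not tested beyond this. Vehicle testes had a median of -0.17. The summed level of the list was 45930 CPM in the 2-week and 53662 CPM in the 3-week boar of litter 14, and 31306 and 13547 CPM in those of litter 15.

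HSD17B4, a peroxisomal enzyme that oxidises oestradiol and fatty acids, had the smallest p of the list. It stood at 2068, 2002, 2703 and 1042 CPM at 2 weeks and at 1411, 859.7, 1740.3 and 1029 CPM at 3 weeks (-0.62 ± 0.18, adjusted p = 0.678). It was lower in 4 of 4 litters, but in litter 41 by only 0.02 on the log2 scale. NR4A1, a nuclear receptor induced by luteinizing hormone, went from 209, 96.0, 63.6 and 68.3 CPM to 15.2, 7.01, 64.3 and 30.1 CPM (-2.25 ± 0.72, adjusted p = 0.731). Litters 14 and 15, which changed lane, had steps of -3.77 and -3.76 while litters 39 and 41, which kept theirs, had steps of 0.01 and -1.18. In vehicle testes the NR4A1 steps were -2.90, -3.30, 2.03 and -0.02 in litters 14, 15, 39 and 41, so a large step was also seen at an unchanged lane. FDX1, the electron donor of the mitochondrial P450 enzymes, was at -0.86 ± 0.34, and the P450 partner CYB5A at -0.56 ± 0.23, both lower in 4 of 4 litters with an adjusted p of 0.785.

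The aromatase count CYP19A1, the target of letrozole, stood at 4814, 2498, 5352 and 3440.1 CPM at 2 weeks and at 5176, 1196, 3589 and 3186 CPM at 3 weeks. It was lower in litters 15 and 39 and near its earlier level in litters 14 and 41 (-0.34 ± 0.38, adjusted p = 0.851). Pigs have closely related aromatase genes, and it is uncertain which of them were counted here. STAR, which carries cholesterol into mitochondria, had 9426, 3835, 14238 and 9295 CPM at 2 weeks and 15137, 1485, 6951 and 4855 CPM at 3 weeks. Litter 14 was higher and the other 3 litters were lower at 3 weeks, and the value was -0.45 ± 0.53 (adjusted p = 0.861). The same split was seen for CYP11A1, which makes pregnenolone (0.36 in litter 14 and -1.62, -0.93 and -0.42 in the others, fitted -0.56 ± 0.31, adjusted p = 0.793), and for CYP17A1, which makes androgens (0.51 in litter 14 and -1.17, -0.28 and -0.38 in the others, fitted -0.24 ± 0.27, adjusted p = 0.855). INSL3, the Leydig cell hormone of testis descent, was lower in 4 of 4 litters, with 8138 to 12699 CPM at 2 weeks and 3349.5 to 11480.2 CPM at 3 weeks (-0.54 ± 0.41, adjusted p = 0.815; vehicle -1.16 ± 0.41). Leydig cell markers as a list had a median of 0.01, with 12 of 22 members above 0 and 1 higher at an unadjusted p under 0.05.

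**Figure D4:**
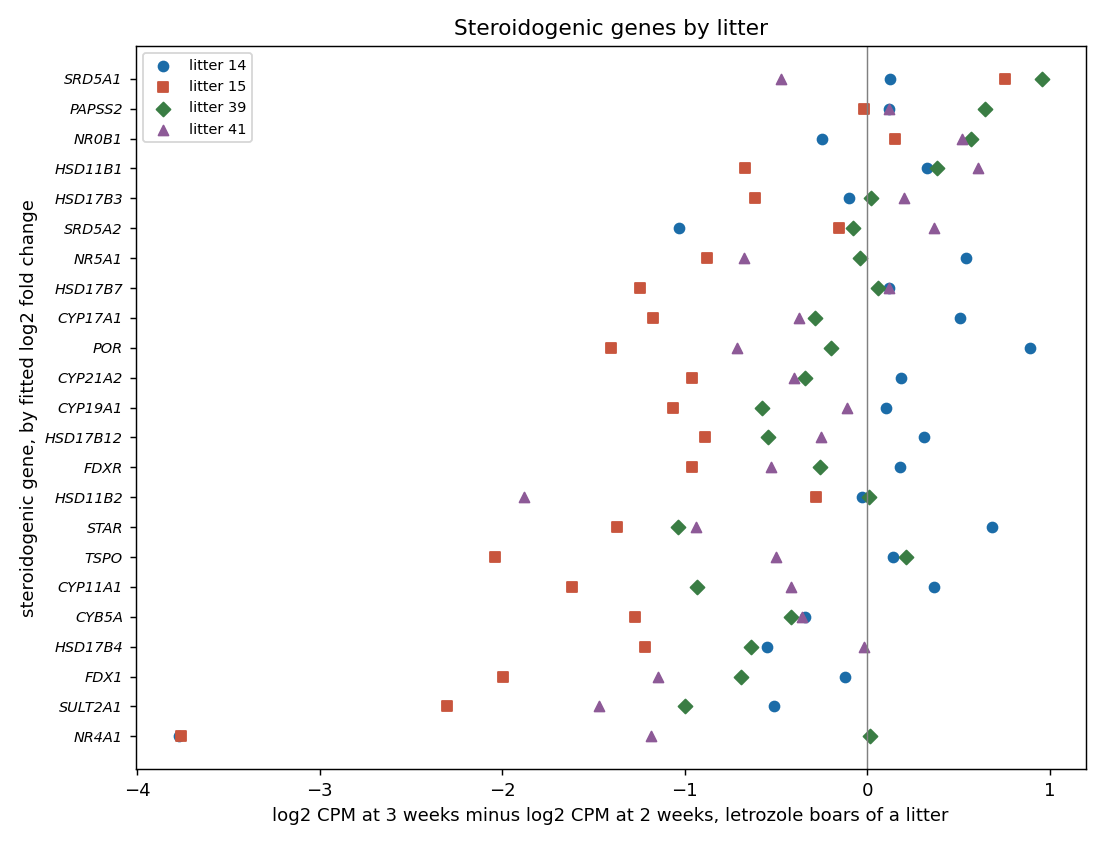
Log2 CPM at 3 weeks minus log2 CPM at 2 weeks for the tested steroidogenic genes at a mean log2 CPM of 1 or more (1 row each, ordered by the fitted log2 fold change) in the letrozole boars of each litter (mark and colour). Litter 15 lay mostly to the left and litter 14 mostly to the right, with list medians of -0.96 and 0.12.

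Genes of cholesterol synthesis and uptake had a median of -0.19 (8 of 33 members above 0, and 0 at an unadjusted p under 0.05 in either direction). The litter medians were 0.32, -0.81, -0.03 and -0.14, and without the 3-week boar of litter 15 the median was 0.00. Without that of litter 14 it was -0.34, with 4 members lower at that p. HMGCS1, which feeds the mevalonate pathway, stood at 608, 309.6, 977 and 260.3 CPM at 2 weeks and 507, 125, 866 and 282 CPM at 3 weeks (-0.36 ± 0.48, adjusted p = 0.877). NPC1, which exports cholesterol from lysosomes, had 0.27 ± 0.17 (adjusted p = 0.802).

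In the list of fatty acid oxidation, 7 of 23 members were above 0, the median was -0.19, and 3 were lower at an unadjusted p under 0.05. The litter medians were 0.31, -0.75, -0.28 and -0.19, and the fitted median was -0.39 (10 lower) without the 3-week boar of litter 14 and -0.086 (2 lower) without that of litter 15. Vehicle testes had a list median of -0.13, with 10 of 23 members above 0, and the median difference between the treatments was -0.12. ACADM, the medium-chain acyl-CoA dehydrogenase, had 297, 327, 343 and 203 CPM at 2 weeks and 204, 107, 293 and 172 CPM at 3 weeks. It was lower in 4 of 4 letrozole litters (-0.64 ± 0.22, adjusted p = 0.774), vehicle testes had 0.31 ± 0.22, and the difference of -0.95 ± 0.31 had an unadjusted p of 0.00658. Without the 3-week vehicle boar of litter 15, the ACADM vehicle value was 0.23 and the difference -0.88 (unadjusted p = 0.0147 in edgeR). SLC25A20, the carnitine carrier of mitochondria, was likewise lower in 4 of 4 litters (-0.71 ± 0.32, adjusted p = 0.793; vehicle 0.45 ± 0.32). The fatty acid binding protein gene FABP1 had 0.347 to 4.05 CPM at 2 weeks and 0.139 to 0.482 CPM at 3 weeks (-2.23 ± 0.84, adjusted p = 0.785).

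Nuclear genes of the respiratory chain had a median of -0.29, with 1 of 32 members above 0 and 4 lower at an unadjusted p under 0.05. NDUFS1 of complex I (-0.35 ± 0.13), SDHC of complex II (-0.49 ± 0.21) and COX7C of complex IV (-0.57 ± 0.25) were lower in 4 of 4 litters, with an adjusted p of 0.785 for the first and 0.793 for the others. The litter medians were 0.30, -1.08, -0.30 and -0.20, and the median was -0.11 with 0 lower members without the 3-week boar of litter 15 but -0.55 with 30 lower without that of litter 14, and 0 passed in either case. Vehicle testes had a median of -0.37. Genes of ribosomal proteins were below 0 in 29 of 29 members, with a median of -0.22 and 0 at an unadjusted p under 0.05. The value rested on litter 15, where the median was -1.21 against 0.17, 0.05 and 0.00 in the other litters, and without that boar it was -0.02. Without the 3-week boar of litter 14 it was -0.46, with 4 members lower at that p. RPS23 stood at 253 CPM in that boar and at 663 to 1042 CPM in the other 3-week boars. In vehicle testes the ribosomal list had a median of -0.48, with 0 of 29 members above 0. Its vehicle litter medians were -0.79, -1.06, 0.14 and -0.11 in litters 14, 15, 39 and 41, so litter 14 was low there too. The 13 genes of the mitochondrial genome had a median of 0.01 in letrozole testes.

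Complement genes were above 0 in 17 of 17 members, with a median of 0.36 against -0.04 in vehicle testes and 3 at an unadjusted p under 0.05. C1S, a protease of the first complement component, went from 100.2, 114, 92.3 and 86.4 CPM to 157, 143, 156 and 112 CPM (0.52 ± 0.17, adjusted p = 0.731). The groups overlapped only by the 112 CPM of litter 41 and the 114 CPM of litter 15, but only 27.2% of its exon reads were unique to the gene. C1R, its partner protease, had 60.7, 69.0, 53.0 and 53.5 CPM and then 103, 88.9, 103 and 61.4 CPM (0.56 ± 0.19, adjusted p = 0.741). SERPING1, the inhibitor of both proteases, had 204, 202, 174 and 157 CPM and then 316, 245, 267 and 171 CPM (0.41 ± 0.17, adjusted p = 0.785). All 3 were higher in 4 of 4 litters, and their vehicle values were 0.12 ± 0.17, 0.13 ± 0.19 and -0.04 ± 0.17. The list median was -0.33 in litter 15 and 0.76, 0.32 and 0.20 in litters 14, 39 and 41, and the fitted median was 0.49 without the 3-week boar of litter 15 and 0.21 without that of litter 14. The macrophage list moved in the same litters, with medians of 0.48, -0.80, 0.20 and 0.39, and its part in the complement values was not tested. The scavenger receptor CD163 of macrophages had 20.7, 35.8, 37.2 and 29.7 CPM at 2 weeks and 30.4, 41.1, 40.4 and 58.1 CPM at 3 weeks. It was higher in 4 of 4 letrozole litters (0.46 ± 0.24, adjusted p = 0.793) and stood at -0.51 ± 0.24 in vehicle testes. CD163 does not stand for the whole list, since only 1 of the 23 tested macrophage members was higher in 4 of 4 letrozole litters. The fitted macrophage median was 0.13 in letrozole testes, with 16 members above 0 and 7 below. In vehicle testes it was -0.33, with 0 members above 0.

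Of 36 tested genes of the cell cycle, 5 were above 0, the median was -0.13, and 2 were lower at an unadjusted p under 0.05 (2.98% of all genes were). The litter medians were -0.13, 0.02, -0.41 and -0.02, with 0 of 36 members above 0 in litter 39, and without the 3-week boar of that litter the fitted median was -0.049, with 1 lower. CDK1, the kinase of entry into mitosis, had non-overlapping groups, with 46.2, 41.1, 53.5 and 39.1 CPM at 2 weeks and 28.8, 25.1, 32.9 and 37.3 CPM at 3 weeks (-0.54 ± 0.19, adjusted p = 0.774). MELK had -0.36 ± 0.17 and the replication clamp PCNA -0.35 ± 0.18, both lower in 4 of 4 litters. Vehicle testes had larger negative values, with -0.66 ± 0.19 for CDK1 and a list median of -0.28, and the letrozole minus vehicle difference of CDK1 was 0.12 ± 0.27 (unadjusted p = 0.650).

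Sertoli cell markers had a median of 0.02, with 15 of 28 members above 0. The receptor ERBB4 was the 1 member higher at an unadjusted p under 0.05 (3.19% of all genes were). The litters were split around the list median, with medians of -0.21, -0.16, 0.24 and 0.12 in litters 14, 15, 39 and 41. A fit of litters 14 and 15 gave -0.15 (9 of 28 members above 0). One of litters 39 and 41, which kept their lane, gave 0.19 (22 of 28), and the part of the lane was not tested. AMH, which makes the Müllerian ducts regress and marks immature Sertoli cells, had 928, 1032, 714 and 336 CPM at 2 weeks and 379, 240.0, 628 and 279 CPM at 3 weeks. It was lower in 4 of 4 litters (-1.10 ± 0.60, adjusted p = 0.793), with the larger steps in litters 14 and 15, but the value was 0.06 with terms for sequencing lane. Only 19.1% of its exon reads were unique to the gene. Vehicle testes had -1.54 ± 0.61 for AMH. The follicle-stimulating hormone receptor FSHR stood at 54.7 to 74.8 CPM at 2 weeks and 40.6 to 76.4 CPM at 3 weeks (-0.06 ± 0.21, adjusted p = 0.952), and the luteinizing hormone receptor LHCGR at 88.0 to 166 CPM and 70.2 to 210.2 CPM (0.17 ± 0.38, adjusted p = 0.923, 42.2% of reads unique). DLK1, found in immature stromal and Leydig cells, had 4.30 to 9.89 CPM at 2 weeks and 3.97 to 17.8 CPM at 3 weeks (0.59 ± 0.42, adjusted p = 0.815; vehicle -1.07 ± 0.44, and -0.70 without the 3-week vehicle boar of litter 15).

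Receptors for sex steroids and their cofactors had a median of 0.19 (7 of 13 members above 0), which was 0.054 without the 3-week boar of litter 15 and -0.091 without that litter. The oestrogen receptor ESR1 had 20.1, 13.7, 10.2 and 9.87 CPM at 2 weeks and 16.5, 29.8, 13.1 and 15.4 CPM at 3 weeks. It was lower in litter 14 and higher in the other 3 (0.42 ± 0.22, adjusted p = 0.793). The coactivator NCOA1 was higher in 4 of 4 litters (0.40 ± 0.19) and the orphan receptor ESRRA lower in 3 (-0.60 ± 0.21, 38.9% of reads unique). The list of oestrogen targets had a median of 0.07, with 9 of 16 members above 0 and 0 at an unadjusted p under 0.05, and the list of androgen targets one of 0.03, with 9 of 16 above 0 and 1 lower at that p.

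Germ cell genes had a median of 0.03 (19 of 33 above 0), but the litter medians were -0.33, 0.02, -0.13 and 0.40 in litters 14, 15, 39 and 41. TEX14, a protein of germ cell bridges, had 13.7, 19.2, 12.9 and 9.66 CPM at 2 weeks and 20.7, 29.8, 11.7 and 21.6 CPM at 3 weeks (0.59 ± 0.22, adjusted p = 0.785). The receptor subunit GFRA1 of undifferentiated spermatogonia was at 0.62 ± 0.33, and the transcription factor ETV5 at -0.31 ± 0.16 with non-overlapping groups of 34.9 to 47.9 CPM and 28.4 to 32.5 CPM.

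In the list of fibroblasts and extracellular matrix, 18 of 37 members were above 0 and the median was -0.01, but OMD stood apart. Osteomodulin, its product, is a small proteoglycan that binds collagen. OMD had 25.5, 18.9, 27.5 and 25.1 CPM at 2 weeks and 12.8, 11.4, 16.01 and 15.0 CPM at 3 weeks. The groups did not overlap and the 4 litter steps were alike, from -0.73 to -0.99 (fitted -0.80 ± 0.20, adjusted p = 0.629). Vehicle testes had 0.19 ± 0.20, and the difference was -0.99 ± 0.29 (unadjusted p = 0.00269). Without the 3-week vehicle boar of litter 15 these were -0.02 and -0.78. The collagen-binding proteoglycan LUM was at -0.47 ± 0.23 and FBLN2 at -0.42 ± 0.22, both lower in 4 of 4 litters in letrozole testes and at -0.43 ± 0.23 and -0.41 ± 0.22 in vehicle testes.

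Immediate early and heat shock genes had a median of -0.13, with 7 of 25 members above 0 and 4 lower at an unadjusted p under 0.05. The stress factor ATF3 had 8.28, 15.2, 10.7 and 5.04 CPM at 2 weeks and 4.43, 5.37, 6.57 and 3.99 CPM at 3 weeks (-0.92 ± 0.28, adjusted p = 0.686). IER3 had 21.0 to 39.9 CPM and then 6.25 to 18.6 CPM, without overlap (-1.36 ± 0.39, adjusted p = 0.678), though 5.31% of its reads were unique. The litter medians were 0.14, -0.80, 0.04 and 0.05, and without the 3-week boar of litter 15 the fitted median was 0.0016. In a fit of litters 39 and 41, which kept their lane, the list had a median of 0.07 and 0 members at an unadjusted p under 0.05, and in one of litters 14 and 15 a median of -0.45 and 7 lower members, of which NR4A1 passed the test. Age and lane changed together in litters 14 and 15, so the 2 cannot be told apart there, and the part of the lane was not tested. In the list of antioxidant and detoxifying genes the median was -0.24 (5 of 24 above 0; litter medians 0.33, -0.85, -0.08 and -0.25), or -0.13 without the 3-week boar of litter 15, and the metallothionein gene MT3 was the member with the largest positive value. MT3 had 2.60, 0.971, 1.12 and 1.28 CPM at 2 weeks and 5.10, 3.66, 4.23 and 2.78 CPM at 3 weeks, without overlap (1.44 ± 0.60, adjusted p = 0.785). TXNRD1, with 77.9 to 104 CPM and then 71.5 to 75.3 CPM, was at -0.26 ± 0.11 and GPX8 at -0.44 ± 0.15.

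**Figure D5:**
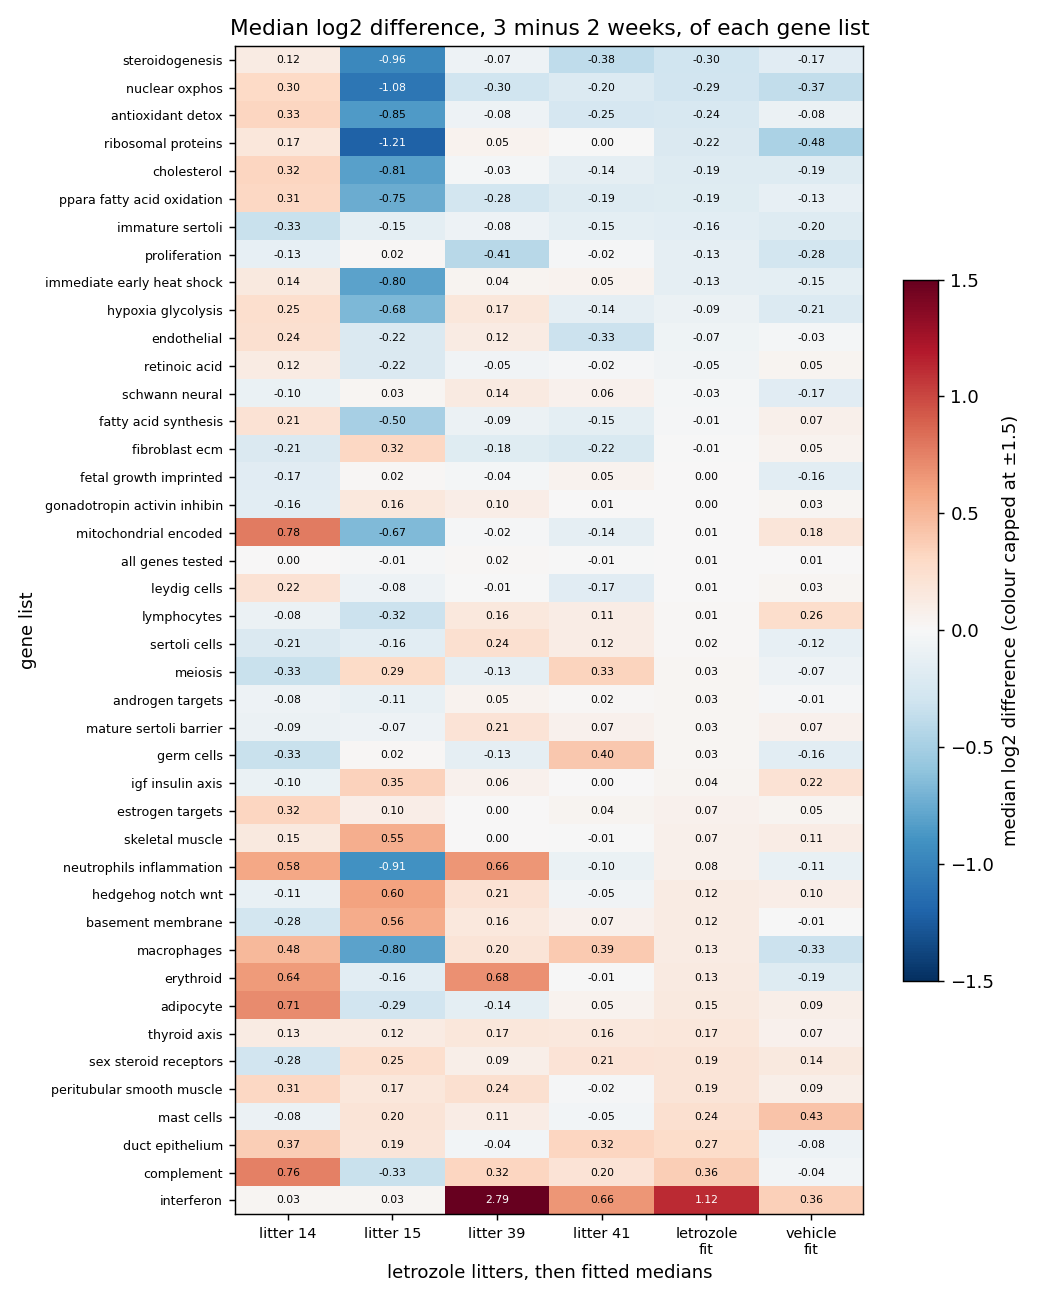
Median log2 difference between 3 and 2 weeks of each gene list and of all genes tested (rows), in the letrozole boars of litters 14, 15, 39 and 41 (log2 CPM at 3 minus 2 weeks), as the letrozole fit and as the vehicle fit (columns). The interferon list had the highest fitted median (1.12) through litters 39 and 41, and the lowest litter medians of the ribosomal, respiratory chain, steroidogenic and cholesterol lists were those of litter 15.

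The remaining lists had medians between -0.16 and 0.27, against 0.01 for all genes. Thyroid hormone genes were above 0 in 11 of 11 members with a median of 0.17, and their litter medians were alike at 0.13, 0.12, 0.17 and 0.16, but the fitted median was 0.027 without litter 14. Among them KLF9, a target of the hormone, was higher in litters 15 and 39 alone (0.43 ± 0.20, adjusted p = 0.793). Vehicle testes had a median of 0.07 for the list. Markers of peritubular smooth muscle had a median of 0.19 (15 of 19 above 0, 1 higher at an unadjusted p under 0.05, as were 3.19% of all genes). Markers of duct epithelium had the highest of these medians, 0.27, at a summed level of 53.3 to 62.9 CPM at 2 weeks and 56.7 to 73.8 CPM at 3 weeks, and the epithelial adhesion gene EPCAM among them stood at 0.556 to 0.937 CPM and 0.838 to 1.99 CPM (0.71 ± 0.31).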

How the data were processed

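Trimmed reads were counted per pig gene, per the file headers, in the CLC Genomics Workbench, per the design text. No genome build is named in the sources used here. The deposited counts (total exon reads) were used as they stand, and the authors' RPKM values served only to check them. Coordinates are those of the deposited tables, with 1 added to the start. Of 21166 genes, 14913 carried a symbol in the tables and 889 got one from a name table. 23 libraries in 6 groups were fitted with edgeR 4.0.16 (TMM scaling, filterByExpr, quasi-likelihood F-tests, litter as a block, Benjamini-Hochberg threshold of 0.05), leaving out 1 vehicle boar whose age label is unclear. The pipeline was tested on simulated data. The numbers pair the boars because they mark littermates under the design. Same-litter deviations from the group means had correlations of 0.13, 0.10, 0.41 and 0.80 (litters 14, 15, 39 and 41), but the 2-week boar of litter 14 correlated more with the 3-week boar of litter 15 (0.39), and that of litter 15 with litter 14 (0.16). No label states that the title's number is the litter, and litters 14 and 15 are weakly paired. Each library is a different boar by its title. No pair of letrozole boars of the same age (2 or 3 weeks) agreed within sampling noise (chi-square per degree of freedom of 40.3 or more). Other pairs of libraries were not compared in this way. Alternatives used DESeq2 1.42.0, other scalings, filters and covariates. Named genes were the 10 smallest p in each direction (with a symbol and a mean log2 CPM of 1 or more), the 5 smallest p for the difference from vehicle, the 3 smallest p of each described list and a list of hormone and steroid genes, of which some are not reported here. Outside this rule, BSPH1, ALAS2, PAPSS2, FDX1, CYB5A, OAS2, MX2 and ENSSSCG00000040146 were named after their values were seen. The comparison and lists were chosen with earlier results of these data known.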

Additional observations from a re-analysis of the deposited data

Results flagged for a closer look

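A sample far from the other 3 of its group, by Dixon's test at the 95% level, was found in 5 of 72 groups of values looked at (a gene or library measure in the letrozole boars of 1 age), and chance gives about 1 in 20. RSAD2 stood at 65.97 CPM in the 3-week boar of litter 39 and at 5.38 CPM in the 2-week boar of litter 15, each the highest of its group. C19orf66 stood at 14.2 CPM in the same 3-week boar of litter 39. FOSL2 at 69.3 CPM was the highest of its group in the 3-week boar of litter 15, which also had the highest intron share, 17.7%. Of the 33 genes looked at, 0 moved one way in every letrozole litter and the other way in every vehicle litter, and other genes were not looked at for this.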

How the results depend on the processing

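Most values kept their direction and side of the threshold: 1083 values of named genes did so, 22 passed the threshold only under an alternative and 17 reversed, and 1357 list medians moved by less than their spread against 37 that moved more. The number of genes past the threshold between 3 and 2 weeks was 0, and it was 21 with DESeq2, 1 with no filter on low counts (BSPH1), 1 in the 16 boars of 2 and 3 weeks (BSPH1), 2 with unique exon reads (BSPH1 and WIPF3) and 6 in litters 14 and 15 alone, where age and lane changed together. Leaving out 1 boar or litter gave 0 to 2: WIPF3 and OAF without the 3-week letrozole boar of litter 14, and BSPH1 without the 2-week vehicle boar of litter 15. For the difference from vehicle it was 1 with DESeq2 and 1 (ENSSSCG00000014910) in litters 14 and 15 alone. With no litter block 0 genes passed in either test, and 432 and 98 had an unadjusted p under 0.05, so the pairing raised these counts to 963 and 220. Over all alternatives the counts at that p ran from 374 to 2872 and from 98 to 531. The highest, 2872, came without the 3-week letrozole boar of litter 14, while it was 1984 without litter 14, 449 without litter 15, 512 without the 3-week letrozole boar of litter 15, 508 in litters 39 and 41 alone and 497 in the 8 boars alone. Reversals were in hormone and steroid genes, and their cause was not tested. LHCGR was -0.38 with terms for lane, -0.21 with intron share as a covariate, -0.17 in litters 39 and 41 alone, -0.16 without the 3-week letrozole boars of litters 15 and 39, and -0.13 to 0.53 leaving out 1 boar or litter. FSHR was 0.074 with lane, 0.25 in litters 39 and 41 alone and -0.26 to 0.13 leaving out 1. AMH was 0.060 with lane. Without the 3-week boars of litters 15 and 39, CYP17A1 was 0.088, CYP19A1 0.034 and STAR 0.17, and STAR was 0.034 in litters 14 and 15 alone. CYP17A1 ranged from -0.59 to 0.0055 leaving out 1. The mean log2 ratio of the mitochondrial share ranged from -0.10 without litter 14 to 0.20 without litter 15. The fitted changes had a median standard error of 0.20 on the log2 scale, and exact tests over 4 litters cannot go below p = 0.125.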

Other observations

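The genes next to BSPH1 on chromosome 6 were looked up after its values were seen. Within 100000 bp there were 8 other genes, of which 5 were tested, and 5 of 5 had a log2 fold change below 0 in letrozole testes (48.8% of all genes did). Of these, 4 were lower at an unadjusted p under 0.05 (2.98% of all genes were), and 0 passed in edgeR. SULT2A1, 30324 bp away, is described above. LIG1, a DNA ligase, had -0.87 ± 0.26 (unadjusted p = 0.00339 in edgeR) and the selenoprotein gene SELENOW -0.76 ± 0.24 (unadjusted p = 0.00518 in edgeR). The unnamed ENSSSCG00000038052 had at most 20 reads in a boar. CRX, ELSPBP1 and CABP5 had at most 7 reads and were not tested. The edgeR adjusted p of the tested neighbours lay between 0.680 and 0.802.

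KISS1, which encodes kisspeptin, was called by DESeq2 (adjusted p = 0.0445) and had 2.60, 5.93, 4.58 and 5.86 CPM at 2 weeks and 1.93, 1.04, 1.94 and 1.53 CPM at 3 weeks in the letrozole boars of litters 14, 15, 39 and 41. The groups did not overlap, and the edgeR value was -1.59 ± 0.40 (adjusted p = 0.629) beside -1.41 ± 0.39 in vehicle testes.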
